A study of Mus musculus with 48 samples.

Results

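The genes described here are 10 genes of the circadian clock and its direct output: Clock, Per1, Per2, Per3, Cry1, Ciart, Nr1d1, Nr1d2, Dbp and Tef. They were found by the Ensembl identifier of each mouse symbol in read counts per gene, so they are 10 of the 55416 genes counted. The rule is by name and uses no expression value, but the list was drawn up with earlier results of these data known. All 10 were among the 15621 genes that passed the filter on low counts and were tested.

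RNA was sequenced from 48 mouse livers, 1 library per animal, in 6 genotype groups of 8. All mice carried the C57Bl/6J strain label and had eaten western diet for 8 weeks, from 8 to 16 weeks of age. The knock-in study, whose groups are labelled DN:WT, DN:HET and DN:HOM, used mice with 0, 1 or 2 copies of the dominant-negative W441R allele of LXRα (Nr1h3), a nuclear receptor for oxidised cholesterol derivatives. The knockout study, with the groups KO:WT, KO:HET and KO:HOM, used mice lacking 0, 1 or 2 copies of the same gene. The knock-in line descends from 1 founder made with CRISPR-Cas9 and crossed to C57BL/6J. The knockout line began on a mixed Sv129 and C57Bl/6 background before it was backcrossed, and the studies were housed at different institutions. The paper states that the characterisation of the W441R and knockout mice was divided into 2 cohorts, with pooled results. The labels do not say which cohort a liver came from. Lights were on for 12 h from 07:00 in the stated husbandry, and the hour at which the livers were collected is not given in the sources used here.

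In the mammalian clock, CLOCK pairs with BMAL1 and binds E-box sequences to switch on the period and cryptochrome genes, whose proteins return to the nucleus and shut that pair down. The same pair drives the nuclear receptors REV-ERBα (Nr1d1) and REV-ERBβ (Nr1d2), which repress Bmal1, and the transcription factors DBP and TEF, which carry the rhythm to output genes through D-box sequences. In liver these transcripts rise and fall over the day in a fixed order, Bmal1 and Npas2 peaking opposite to Dbp, so that the level in any single liver depends on the hour at which it was taken.

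The genes lie on different chromosomes apart from a pair on chromosome 11. In build GRCm39, Clock (ENSMUSG00000029238) spans chr5:76342860-76452846 on the minus strand, Per1 (ENSMUSG00000020893) chr11:68986035-69002300 on the plus strand and Per2 (ENSMUSG00000055866) chr1:91343700-91387069 on the minus strand. Per3 (ENSMUSG00000028957) spans chr4:151081373-151129140, Cry1 (ENSMUSG00000020038) chr10:84967560-85021252 and Ciart (ENSMUSG00000038550) chr3:95785815-95789991, all on the minus strand. Nr1d1 (ENSMUSG00000020889) spans chr11:98658752-98666188 on the minus strand and Nr1d2 (ENSMUSG00000021775) chr14:4230545-4266624 on the plus strand. Dbp (ENSMUSG00000059824) spans chr7:45354512-45359627 and Tef (ENSMUSG00000022389) chr15:81686622-81711064, both on the plus strand. No exon of another gene overlapped them on their own strand. On the opposite strand, exons of Thra cover 1694 of the 3242 exonic bases of Nr1d1, and exons of Sphk2 cover 539 exonic bases of Dbp. Opposite-strand exons of Tmem165, Apc-ps1 and Gm7467 cover 2641 exonic bases of Clock, and such exons also cover 250 bases of Ciart, 193 of Tef and 154 of Per3. Counts from the strand of the transcript were used to separate such pairs, and how fully they did so was not tested.

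Promoter windows of 300 bases, 250 before to 50 after the annotated start, were searched for the E-box, the D-box and related sequences. RefSeq's promoter table (GRCm38.p6) held 13 windows for 9 of the 10 genes, with no entry for Per2, and each window was found unchanged in GRCm39. The E-box CACGTG, searched on both strands, was present for 4 of the 9 genes (Per1, Cry1, Tef and Ciart). By window, it was present in 5 of the 13 and in 7.15% of all 32851 promoter windows. No motif searched was present for Clock, Nr1d2 or Dbp. The variant CACGTT was present on either strand for 2 of the 9 (Cry1 and Nr1d1), in 2 of the 13 windows and in 4.68% of all windows. The D-box, TTATGTAA or TTACGTAA, was present for Per3 alone, in 2 copies, so in 1 of the 13 windows and in 1.06% of all windows. The cyclic AMP response element TGACGTCA and the REV-ERB element, TAGGTCA or TGGGTCA, matched none of the 9 genes and matched 1.79% and 6.45% of all windows. These shares describe letters in a short window, and sites outside it were not searched. The 3 windows below are shown because Ciart and Per3, whose wild-type groups did not overlap between the studies, hold repeated copies of the E-box and of the D-box, and because Cry1, which fell in DN:HOM livers, holds both kinds of E-box. They are written 5′ to 3′ along the gene, with the matches in capitals, from chr3:95789491-95789790, chr4:151129073-151129372 and chr10:85020869-85021168 on the minus strand of GRCm39.
Ciart: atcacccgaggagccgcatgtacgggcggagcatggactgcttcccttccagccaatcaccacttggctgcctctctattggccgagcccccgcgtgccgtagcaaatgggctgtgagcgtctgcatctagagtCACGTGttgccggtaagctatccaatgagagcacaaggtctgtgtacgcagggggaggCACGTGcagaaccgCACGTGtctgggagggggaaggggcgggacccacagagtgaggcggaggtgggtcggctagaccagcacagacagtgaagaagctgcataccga
Per3: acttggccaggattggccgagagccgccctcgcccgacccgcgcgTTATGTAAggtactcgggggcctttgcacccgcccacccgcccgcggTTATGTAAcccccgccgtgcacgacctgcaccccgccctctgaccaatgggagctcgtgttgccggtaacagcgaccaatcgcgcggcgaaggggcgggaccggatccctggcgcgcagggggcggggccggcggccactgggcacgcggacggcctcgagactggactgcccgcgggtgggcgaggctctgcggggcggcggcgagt
Cry1: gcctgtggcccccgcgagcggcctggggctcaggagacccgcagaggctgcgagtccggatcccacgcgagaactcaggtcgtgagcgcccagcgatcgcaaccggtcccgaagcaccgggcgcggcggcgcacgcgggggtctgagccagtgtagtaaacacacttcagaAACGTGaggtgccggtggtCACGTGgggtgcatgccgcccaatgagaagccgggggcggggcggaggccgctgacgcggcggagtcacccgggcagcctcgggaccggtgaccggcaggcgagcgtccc
The E-boxes of Ciart began 44, 58 and 116 bases before the start, and the D-boxes of Per3 158 and 205 bases before it. In Cry1 the E-box lay 60 bases and its variant 79 bases upstream. The single E-box of Per1 lay 166 bases upstream. Per1, Tef and Nr1d2 also had wild-type groups that did not overlap. Of these, Per1 and Tef held at most 1 E-box in a window and Nr1d2 held no match. Per2, which also fell in DN:HOM livers, had no window to search. A link between motifs and levels was not tested.

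Reads assigned to genes ranged from 5332897 to 16961379 per liver with a median of 15879972, and all but 2 livers, KO:HET animal 3 and KO:HOM animal 17, held at least 13876351. Levels are given as CPM, counts scaled to a common library size by edgeR's TMM method. The lowest value of any member, 0.375 CPM of Ciart in a DN:HET liver, rested on 6 reads. Nr1h3 itself had a median of 90.2 CPM in KO:WT, 59.7 in KO:HET and 26.4 in KO:HOM livers, and the remaining reads do not tell whether the protein is made. The point mutation does not remove the transcript, which had a median of 92.9 CPM in DN:WT, 93.2 in DN:HET and 73.3 in DN:HOM livers. The library labelled DN:WT animal 10 had 71.3 CPM of Nr1h3, where the other 7 DN:WT livers had 82.1 to 96.9, and the library labelled DN:HOM animal 12 had 86.9, where the other 7 DN:HOM livers had 68.5 to 77.4. Their summed macrophage markers were 2141 CPM, against 269 to 509 in the other DN:WT livers, and 284 CPM, against 1434 to 2279 in the other DN:HOM livers. In both measures each of these 2 livers lay outside the rest of its own group and inside the range of the other group, and whether their labels were exchanged was not tested. DN:HOM and DN:WT livers did not overlap in 0.115% of all genes with these 2 livers and in 33.6% without them, so the DN:HOM values over all livers include 1 liver in each group that goes against its label. All 48 livers were kept as labelled, and the counts of members called in comparisons with these groups are also given without those 2 livers.

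Clock encodes the DNA-binding partner of BMAL1 in the activating arm. Its level ran from 26.8 to 60.1 CPM in DN:WT livers (median 44.2), from 34.7 to 64.1 in DN:HET (49.3) and from 25.6 to 52.7 in DN:HOM (40.5). In the knockout study it ran from 25.7 to 41.0 CPM in KO:WT livers (31.6), from 23.9 to 42.6 in KO:HET (31.5) and from 20.9 to 30.8 in KO:HOM (28.2). The groups of each study overlapped, and so did the wild-type groups of both studies.

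Per1, Per2 and Per3 encode the period proteins, partners of the cryptochromes in the repressor complex. Per1 ran from 5.63 to 34.7 CPM in DN:WT livers (median 14.4), from 3.72 to 49.9 in DN:HET (9.97) and from 3.99 to 37.0 in DN:HOM (16.8), against 45.3 to 92.7 in KO:WT (68.0), 52.6 to 85.8 in KO:HET (69.8) and 36.4 to 78.7 in KO:HOM (50.7). Per3 ran from 6.43 to 54.2 CPM in DN:WT livers (21.7), from 3.85 to 49.9 in DN:HET (12.6) and from 7.97 to 39.0 in DN:HOM (16.1), against 57.7 to 92.2 in KO:WT (68.1), 45.5 to 106 in KO:HET (61.9) and 48.04 to 73.3 in KO:HOM (61.5). Both genes thus varied several fold among animals of 1 genotype in the knock-in study and less widely in the knockout study, and their wild-type groups did not overlap. Per2 ran from 10.1 to 59.7 CPM in DN:WT livers (36.8), from 19.8 to 51.1 in DN:HET (29.4) and from 13.1 to 30.2 in DN:HOM (23.5), against 47.6 to 103 in KO:WT (72.1), 58.4 to 86.6 in KO:HET (71.8) and 59.0 to 88.1 in KO:HOM (71.3). Its wild-type groups overlapped at their edges, and the highest DN:HOM liver lay below the DN:WT median.

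Cry1 encodes a cryptochrome, the strongest repressor of the CLOCK and BMAL1 pair, and Ciart encodes CHRONO, another repressor of the same pair. Cry1 ran from 8.06 to 20.6 CPM in DN:WT livers (median 9.47), from 5.19 to 28.5 in DN:HET (9.50) and from 3.35 to 12.3 in DN:HOM (4.93), against 6.05 to 20.3 in KO:WT (13.5), 6.27 to 17.01 in KO:HET (11.02) and 8.95 to 15.8 in KO:HOM (13.7). The highest DN:HOM value was that of the library labelled animal 12, and the other 7 lay below every DN:WT liver. Ciart ran from 0.456 to 14.1 CPM in DN:WT livers (3.22), from 0.375 to 15.2 in DN:HET (2.47) and from 0.613 to 9.36 in DN:HOM (2.09), against 16.4 to 68.3 in KO:WT (42.6), 29.04 to 61.0 in KO:HET (37.0) and 16.7 to 35.9 in KO:HOM (18.6). It was the member whose 24 knock-in livers all lay below all 24 knockout livers.

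Nr1d1 and Nr1d2 encode the REV-ERB receptors, which repress Bmal1. Nr1d1 ran from 61.5 to 195 CPM in DN:WT livers (median 122), from 79.1 to 160.0 in DN:HET (119) and from 65.7 to 118 in DN:HOM (88.6), against 37.2 to 147 in KO:WT (77.9), 36.3 to 138 in KO:HET (87.1) and 33.8 to 83.9 in KO:HOM (48.2). Nr1d2 ran from 61.0 to 115 CPM in DN:WT livers (97.3), from 58.9 to 136 in DN:HET (82.1) and from 63.9 to 114 in DN:HOM (97.9), against 116 to 143 in KO:WT (130), 117 to 150.1 in KO:HET (131) and 89.5 to 123 in KO:HOM (118). Nr1d1 was the member that varied more among the knockout livers than among the knock-in livers.

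Dbp and Tef encode related transcription factors of the output arm. Dbp ran from 13.5 to 189 CPM in DN:WT livers (median 97.6), from 11.3 to 214 in DN:HET (47.96) and from 30.8 to 162 in DN:HOM (65.5), against 115 to 251 in KO:WT (195), 119 to 284 in KO:HET (183) and 105 to 192 in KO:HOM (162). Tef ran from 37.7 to 185 CPM in DN:WT livers (128), from 56.1 to 213 in DN:HET (97.9) and from 62.6 to 147 in DN:HOM (92.5), against 206 to 284 in KO:WT (248.7), 227 to 344 in KO:HET (246) and 189 to 261 in KO:HOM (235). The highest knock-in livers thus reached the knockout range for Dbp, and for Tef only a DN:HET liver did.

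**Figure D1:**
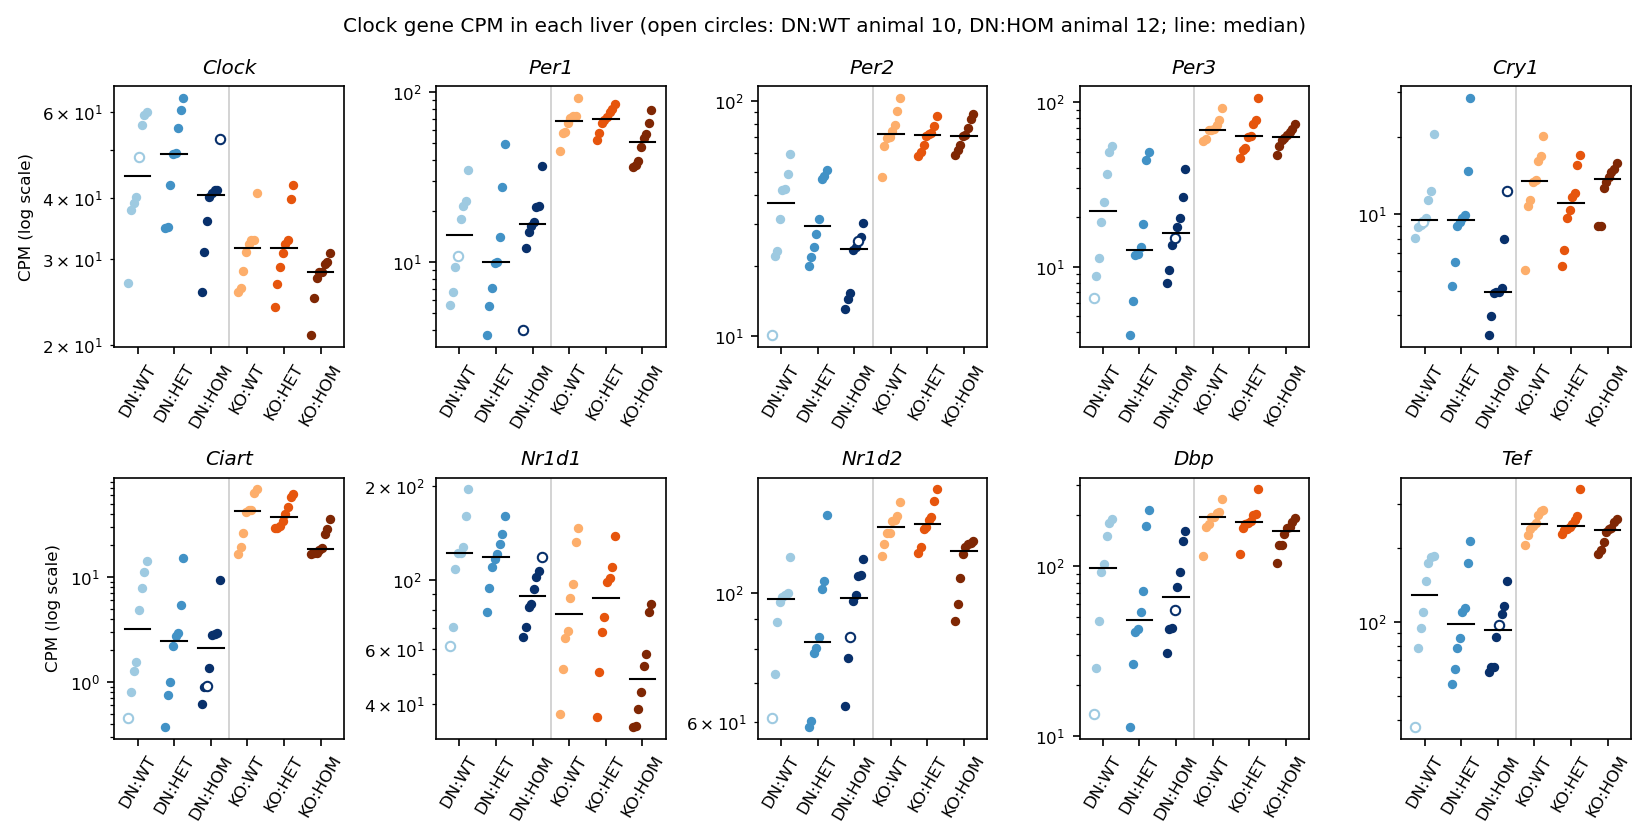
CPM of the 10 clock genes in each of the 48 livers on log axes, with 1 panel per gene, 1 column of points per genotype group, a line at the group median and open circles for DN:WT animal 10 and DN:HOM animal 12. For Dbp, Per1, Per3 and Ciart the knock-in livers span a wider fold range than the knockout livers. For Ciart the highest knock-in liver (15.2 CPM) is below the lowest knockout liver (16.4 CPM).

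To compare genes, levels were divided by exonic length, pooled over all annotated transcripts of a gene. That length can exceed the transcript present in liver, so the order is approximate. Per kilobase of exon, Dbp was the most abundant member in KO:WT livers, with a median of 56.1 CPM per kilobase. Tef followed at 30.1, Nr1d1 at 24.04, Ciart at 16.3, Nr1d2 at 14.3, Per2 at 10.99, Per1 at 8.87 and Per3 at 6.49, with Cry1 at 2.71 and Clock at 1.83 lowest. Neighbours in that order overlapped in range except Per3 and Cry1. In DN:WT livers Nr1d1 led at 37.5 CPM per kilobase and Dbp followed at 28.1, and Ciart came last at 1.23, with all neighbours overlapping.

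The comparison of the wild-type groups asks how far the clock genes differ between the studies when neither group carries a mutant allele. Most members were lower in DN:WT than in KO:WT livers: Ciart, Per1, Per3, Per2, Tef and Nr1d2 fell and Clock rose. With edgeR's quasi-likelihood test and Benjamini-Hochberg adjustment over all genes, 7 of 10 members passed an adjusted p of 0.05, where 12.7% of all genes did (6.51% higher and 6.20% lower in DN:WT). Ciart differed by -2.93 on the log2 scale (SE 0.53, edgeR adjusted p = 0.000139) and Per1 by -2.04 (SE 0.37, edgeR adjusted p = 0.00012). The other period genes differed less, Per3 by -1.42 (SE 0.37, edgeR adjusted p = 0.0071) and Per2 by -1.10 (SE 0.22, edgeR adjusted p = 0.000587). Tef differed by -0.99 (SE 0.22, edgeR adjusted p = 0.00214) and Nr1d2 by -0.50 (SE 0.12, edgeR adjusted p = 0.00458). Clock was higher in DN:WT by 0.56 (SE 0.14, edgeR adjusted p = 0.00655). Dbp did not pass, at -0.92 (SE 0.41, edgeR adjusted p = 0.129), nor did Cry1 at -0.28 (SE 0.26, edgeR adjusted p = 0.519) or Nr1d1 at 0.49 (SE 0.24, edgeR adjusted p = 0.178). The median log2 difference was -0.96 over the members and 0.04 over all genes tested.

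For 5 members (Per1, Per3, Nr1d2, Tef and Ciart) every DN:WT liver lay below every KO:WT liver, a separation in that direction found in 0.890% of all genes. Over whole studies, all 24 knock-in livers lay below all 24 knockout livers in 0.122% of genes, Ciart among them. Without the 2 livers that went against their labels the same 7 members passed, against 12.01% of all genes, with Ciart at -2.75 and Per1 at -1.99. Study, institution and line vary together here and cannot be told apart, and whether the hour of collection differed is not given in the sources used here.

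Of 15 further clock genes listed, 2 were higher and 4 lower in DN:WT, with all livers and without those 2, where 12.7% of all genes were called with all livers. Bmal1, the partner of Clock, was higher by 2.34 on the log2 scale (SE 0.47, edgeR adjusted p = 0.000488), with 2.20 to 26.1 CPM in DN:WT against 0.558 to 3.65 in KO:WT. Npas2, which can stand in for Clock, was higher by 4.42 (SE 0.80, edgeR adjusted p = 0.000144), with up to 11.7 CPM in DN:WT and at most 0.556 in KO:WT. Among those lower were Cry2 (-0.58), Rora (-0.33) and Hlf (-0.79), the last a relative of Dbp and Tef. Bmal1 and Npas2 were thus on the opposite side of this comparison from Ciart, Per1, Per3 and Tef.

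**Figure D2:**
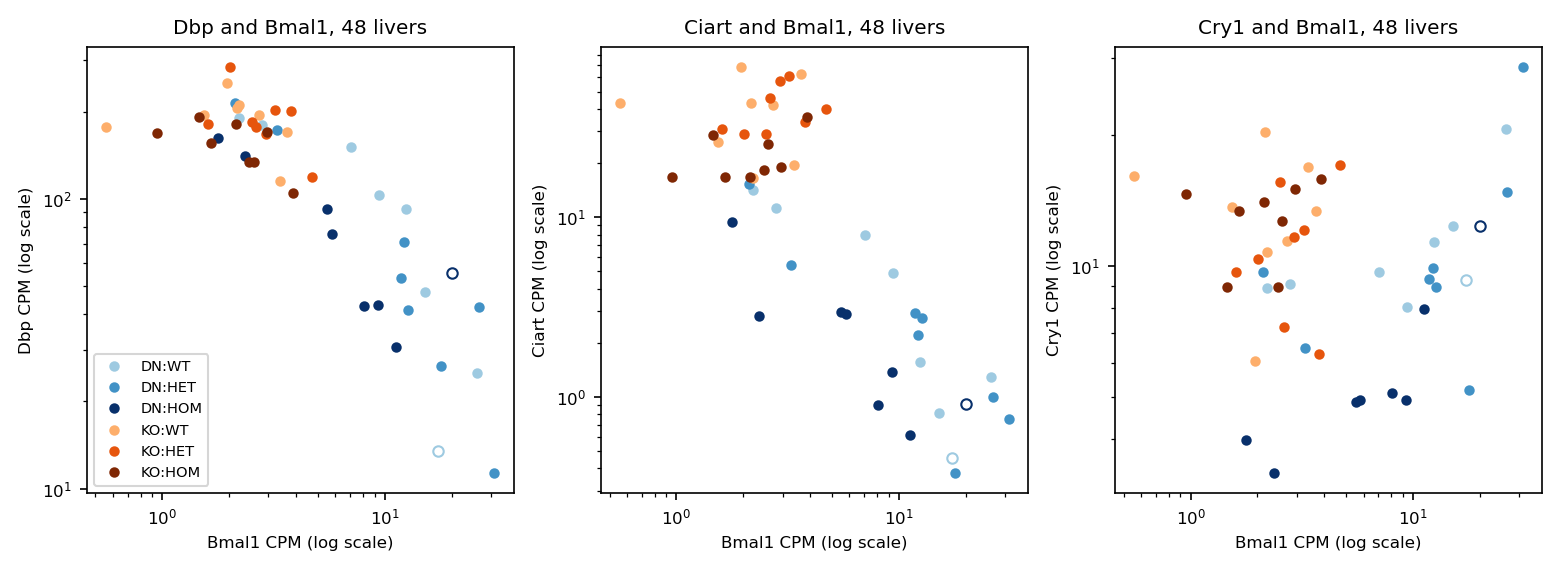
CPM of Dbp, Ciart and Cry1 against CPM of Bmal1 in the same liver, both on log axes, with 1 point per liver coloured by genotype group and open circles for DN:WT animal 10 and DN:HOM animal 12. The knock-in livers spread from 1.78 to 31.2 CPM of Bmal1, with less Dbp and Ciart at higher Bmal1, and the knockout livers stay at or below 4.69 CPM.

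Other genes that follow the time of day, feeding or adrenal hormones also differed between the wild-type groups. Of 14 rhythmic output genes listed, 10 were lower in DN:WT and 2 higher, where 6.20% of all genes were lower and 6.51% higher. Those lower included the lipid phosphatase Lpin1 (-3.21), the deubiquitinase Usp2 (-2.97), the P450 reductase Por (-1.82) and the NAD synthesis enzyme Nampt (-1.06). Of 8 glucocorticoid-responsive genes 6 were lower and 0 higher, including Zbtb16 (-3.44) and the immunophilin gene Fkbp5 (-2.81), with Tsc22d3 at -1.68. Of 10 fasting-responsive genes 5 were lower and 1 higher, with Pck1, the gluconeogenic enzyme, at -1.92 and Angptl4, an inhibitor of lipoprotein lipase, at -1.46. Leaving out the 2 livers gave the same counts for the rhythmic and glucocorticoid lists, and 6 fasting-responsive genes were lower and 1 higher. Of 8 genes of the heat and cold response edgeR called 0, 2 had an unadjusted p under 0.05 and DESeq2 called 0, and without the 2 livers edgeR called Rbm3. Of 8 immediate early genes edgeR called 0, 1 had an unadjusted p under 0.05 and DESeq2 called 0. Among cell type markers, 3 of 10 hepatocyte markers were lower and 1 of 10 macrophage markers higher in DN:WT, with summed hepatocyte levels of 52795 to 85857 CPM against 80475 to 106365 CPM in KO:WT and summed macrophage levels of 269 to 2141 CPM against 190.0 to 456 CPM. The lowest hepatocyte and the highest macrophage sum in DN:WT were those of animal 10, without which the ranges were 70540.2 to 85857 CPM and 269 to 509 CPM, and 0 of 10 macrophage markers were called by edgeR, with 0 at an unadjusted p under 0.05. In whole tissue, fewer cells of a type and less RNA per cell cannot be told apart, and the part of such a shift in the clock gene values was not tested.

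The effect of 2 copies of the dominant-negative allele was asked within the knock-in study. Cry1 and Per2 fell in DN:HOM livers, and the other 8 members did not pass the test. This was 2 of 10 members where 48.03% of all genes passed. Cry1 fell by 0.92 on the log2 scale (SE 0.27, edgeR adjusted p = 0.0051) and Per2 fell by 0.70 (SE 0.22, edgeR adjusted p = 0.00914). The remaining members were Ciart at -0.93 (SE 0.55, edgeR adjusted p = 0.158), Per3 at -0.50, Tef at -0.43, Nr1d1 at -0.42, Dbp at -0.32 (SE 0.41, edgeR adjusted p = 0.54), Clock at -0.25, Nr1d2 at 0.03 and Per1 at 0.16. The median over members was -0.42, against -0.02 over all genes. Intervals of 2 SE either side ran from -2.03 to 0.16 for Ciart, from -1.13 to 0.50 for Dbp and from -0.56 to 0.88 for Per1.

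Without the 2 livers that went against their labels, 4 members passed where 59.1% of all genes did. Cry1 then fell by 1.17 (SE 0.27, edgeR adjusted p = 0.000303), with 3.35 to 7.97 CPM in DN:HOM and 8.06 to 20.6 in DN:WT, groups that no longer overlapped. Such a separation held for 15.9% of all genes in the lower direction. Per2 fell by 0.87 (edgeR adjusted p = 0.000354), Nr1d1 fell by 0.57 (edgeR adjusted p = 0.0481) and Tef fell by 0.56 (edgeR adjusted p = 0.0191). Scaling by library size alone moved the median of all genes from -0.02 to 0.32, and the Per2 call was then lost (-0.33, edgeR adjusted p = 0.162). It was also lost when only DN:HOM and DN:WT livers were fitted (-0.68, edgeR adjusted p = 0.0627). Relative to that median Per2 stood at -0.65, against -0.68 with TMM scaling, and Cry1 at -0.94. Under that scaling Nr1d2 was higher by 0.39 (edgeR adjusted p = 0.00512), which is 0.07 above the median of all genes.

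With the level of Bmal1 in each liver as a covariate, an analysis added after the data were seen, 5 members passed where 47.7% of all genes did. They were Ciart (-1.20), Cry1 (-0.82), Per2 (-0.76), Per3 (-0.64) and Tef (-0.53). Without the 2 livers 7 members passed against 59.3% of all genes, with Dbp (-0.82) and Nr1d1 (-0.59) joining them. Bmal1 is itself part of the loop, so this fit compares livers at equal Bmal1, not livers at an equal hour. Bmal1 did not pass in DN:HOM livers (-0.54, edgeR adjusted p = 0.306).

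Of the 15 further clock genes, 6 were lower and 3 higher in DN:HOM livers, a share to be read against the 48.03% of all genes called in this comparison. The count was 6 lower and 3 higher without the 2 livers as well. Rora, which encodes a nuclear receptor that activates Bmal1, was lower, at -0.29 (edgeR adjusted p = 0.0195). Hlf (-0.70), Nfil3 (-0.67), Cry2 (-0.40) and the kinase gene Gsk3b (-0.18) were also lower. Csnk1e, which encodes a kinase that marks period proteins, was higher by 0.71, and the ubiquitin ligase gene Fbxw11 by 0.14. Of the 14 rhythmic output genes 6 were lower, with Rgs16 at -2.78, Upp2 at -2.60, Elovl3 at -1.85 and Gys2 at -0.65, and 1 was higher, so that 7 of 14 were called, close to the share of all genes. These counts were the same without the 2 livers. Of the 8 immediate early genes 6 were higher, among them Fos (1.81), Nr4a1 (1.67) and Atf3 (1.64), and 7 were higher without the 2 livers. Of the 8 glucocorticoid-responsive genes 3 were higher and 1 lower, and of the 8 genes of the heat and cold response 2 were higher and 1 lower. Of the 10 fasting-responsive genes 4 were lower, including G6pc1 (-0.91), which encodes the enzyme that releases glucose.

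RNA of cell type markers moved with this genotype, and the counts of markers below are to be read against the 48.03% of all genes called with all livers and the 59.1% called without the 2 livers. The summed level of 10 hepatocyte markers had a median of 77801 CPM in DN:WT and 43887 CPM in DN:HOM livers (range 41888 to 89868, the highest being animal 12), and 7 of the 10 were lower. The summed level of 10 macrophage markers had medians of 353 and 1875 CPM (DN:HOM range 284 to 2279, the lowest being animal 12), and 8 of the 10 were higher. Median sums also differed for stellate cell and fibroblast markers (215 and 939.6 CPM, 8 of 8 higher), cholangiocyte markers (8.996 and 61.1 CPM, 5 of 5 higher), neutrophil markers (1.69 and 29.9 CPM, 3 of 3 tested higher) and endothelial markers (130 and 87.4 CPM, 4 of 6 lower). All 10 macrophage markers were higher without the 2 livers, with sums of 269 to 509 CPM in DN:WT and 1434 to 2279 CPM in DN:HOM livers, and hepatocyte sums were 70540.2 to 85857 CPM and 41888 to 51633 CPM. Ly6g, of the neutrophil list, had a median of 0 in DN:WT livers, and no hepatocyte or macrophage marker had a group median of 0. The part of this shift in the levels of Cry1, Per2 and the other members was not tested.

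**Figure D3:**
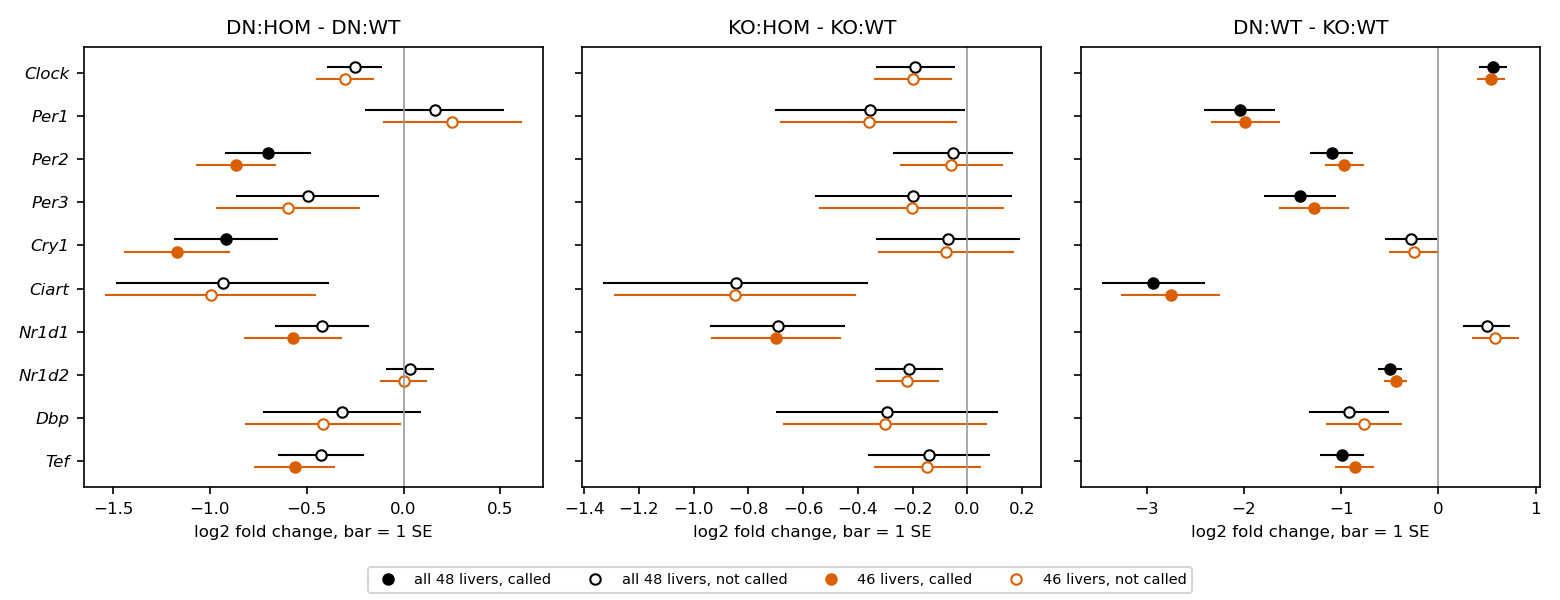
Log2 fold change of each clock gene with bars of 1 SE for DN:HOM against DN:WT, KO:HOM against KO:WT and DN:WT against KO:WT, from edgeR fits of all 48 livers (black) and of the 46 livers left without DN:WT animal 10 and DN:HOM animal 12 (orange), filled where the adjusted p is under 0.05. With all livers the points farthest from 0 are Ciart (-2.93) and Per1 (-2.04) between the wild-type groups, and within studies Cry1 and Per2 are filled in the knock-in panel and none in the knockout panel.

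A single dominant-negative allele left no detectable change in the members. In DN:HET against DN:WT livers, edgeR called 0 of 10, 0 had an unadjusted p under 0.05 and DESeq2 called 0, where 0.250% of all genes were called by edgeR. Log2 differences ran from -0.45 for Ciart to 0.09 for Clock. The interval of 2 SE either side ran from -1.54 to 0.64 for Ciart, from -1.16 to 0.48 for Dbp and from -0.20 to 0.37 for Clock, so that for Ciart and Dbp changes of more than 2 fold downward lie inside it. With the 2 livers left out edgeR again called 0, with 0 at an unadjusted p under 0.05, where 2.30% of all genes were called, and Ciart stood at -0.64, Per3 at -0.55 and Dbp at -0.51.

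The effect of the loss of LXRα was asked within the knockout study. In KO:HOM against KO:WT livers edgeR called 0 of 10 members, where 12.9% of all genes were called. All 10 estimates lay below 0, with a median of -0.20 against -0.02 over all genes. Nr1d1, the 1 member with an unadjusted p under 0.05, was at -0.69 (SE 0.25, edgeR adjusted p = 0.0538). DESeq2 called Nr1d1 (adjusted p = 0.0345), and so did edgeR when the 2 knock-in livers that went against their labels were left out of the shared fit (adjusted p = 0.0319), where 14.7% and 19.4% of all genes were called. Ciart was at -0.85 (SE 0.48, edgeR adjusted p = 0.264) and passed only in a fit of the groups compared (edgeR adjusted p = 0.0384). Among the other members Per1 was at -0.36, Dbp at -0.29, Nr1d2 at -0.21, Per3 at -0.20, Clock at -0.19, Tef at -0.14, Cry1 at -0.07 and Per2 at -0.05. Rora (-0.39, edgeR adjusted p = 0.00857) was the call among the 15 further clock genes. Macrophage markers summed to a median of 254 CPM in KO:WT and 859.9 CPM in KO:HOM livers and hepatocyte markers to 91809 and 71383 CPM. T cell markers summed to a median of 1.57 CPM (0.972 to 5.51) in KO:WT and 10.9 CPM (5.48 to 22.2) in KO:HOM livers, with 6 of 6 higher, stellate cell and fibroblast markers to 205 and 337 CPM, and neutrophil markers to 0.985 and 3.52 CPM. The part of these shifts in the value of Nr1d1 was not tested.

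In KO:HET against KO:WT livers edgeR called 0 of 10 members, 0 had an unadjusted p under 0.05 and DESeq2 called 0, where edgeR called 0.0192% of all genes. Log2 differences ran from -0.27 for Cry1 to 0.06 for Per1.

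Whether the homozygous effects differed between the alleles was tested as a difference of differences. With all 48 livers edgeR called 0 of 10 members, 2 had an unadjusted p under 0.05 and DESeq2 called 0, where 10.5% of all genes were called. Cry1 stood at -0.85 (edgeR adjusted p = 0.135) and Per2 at -0.65 (edgeR adjusted p = 0.165). Without the 2 livers these 2 genes passed, where 34.7% of all genes did, Cry1 at -1.09 (edgeR adjusted p = 0.0185) and Per2 at -0.81 (edgeR adjusted p = 0.0205), and the DN:HOM effect was the lower.

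The members also differed between the studies in their spread among livers. Across the 24 knock-in livers Ciart spanned 40.5 fold from lowest to highest, Dbp 18.9 fold, Per3 14.1 fold and Per1 13.4 fold. Across the 24 knockout livers the same genes spanned 4.15, 2.71, 2.33 and 2.55 fold. Nr1d1 went the other way, with 3.16 fold in the knock-in and 4.34 fold in the knockout livers.

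The SD of log2 CPM around the group means, a measure that removes genotype, was 1.23 for Dbp in knock-in and 0.32 in knockout livers, a ratio of 3.83. Any difference between cohorts within a group stays in this SD and was not tested. The ratio was 3.82 for Per3, 3.73 for Tef, 3.18 for Per1, 2.75 for Ciart, 2.5 for Per2 and 2.46 for Nr1d2, against a median of 1.09 over all genes. For Dbp 0.0192% of the 15621 genes had a larger ratio, for Per3 0.0320% and for Tef 0.0448%. A permutation test of the mean absolute deviation from the group median between studies, 2-sided and chosen after the data were seen, gave p = 2e-05 for Dbp, 2e-05 for Per3, 2e-05 for Ciart and 1e-05 for Tef, where 1e-05 is the smallest that 100000 permutations can give. It gave permutation p = 0.00019 for Per1, 0.0003 for Per2, 0.00761 for Nr1d2 and 0.0487 for Clock (ratio 1.55), without adjustment over the 10 tests. Nr1d1 had a ratio of 0.67 (permutation p = 0.0236) and Cry1 one of 1.31 (permutation p = 0.671). Without the 2 livers the ratios were 3.58 for Dbp, 3.75 for Per3 and 3.23 for Tef, and Clock gave permutation p = 0.0866.

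**Figure D4:**
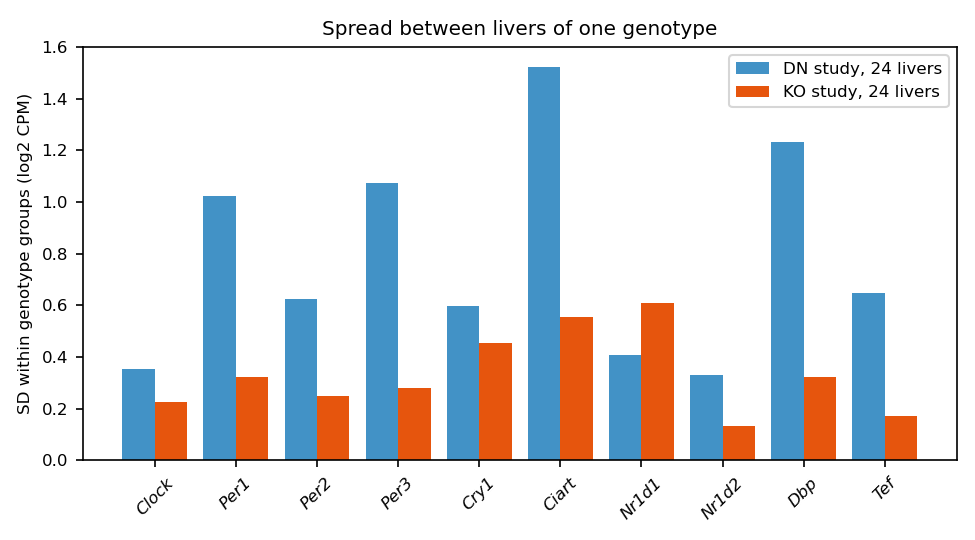
Bars, from 0, of the SD of log2 CPM within genotype groups for each clock gene in the 24 knock-in and the 24 knockout livers. The knock-in bar is the taller for Dbp (1.23 against 0.32), Per3 and Tef, and the shorter for Nr1d1 (0.41 against 0.61).

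Individual livers of 1 genotype stood at opposite ends of the loop. DN:HET animal 8 had 214 CPM of Dbp, 213 of Tef, 49.9 of Per3 and 15.2 of Ciart, with 2.13 of Bmal1 and 0.258 of Npas2. DN:HET animal 20 had 11.3 CPM of Dbp, 56.1 of Tef, 3.85 of Per3 and 0.755 of Ciart, with 31.2 of Bmal1 and 16.5 of Npas2. The second liver also had the highest Cry1 (28.5 CPM) and Clock (64.1 CPM) of its group, where the first had 9.66 and 34.7. Per2 did not follow this split, at 51.1 CPM in the first and 48.1 CPM in the second.

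Members also varied together from liver to liver within genotypes. After the group mean was removed, Dbp correlated across the 48 livers with Tef (Pearson r = 0.95, Spearman rho = 0.88), Per3 (0.93 and 0.78), Nr1d2 (0.86 and 0.79) and Ciart (0.81 and 0.67), each with a Benjamini-Hochberg adjusted permutation p for r of 2.25e-05 over 9 pairs. Dbp correlated negatively with Clock (r = -0.66, rho = -0.62, adjusted permutation p = 9e-05) and Cry1 (r = -0.46, rho = -0.44, adjusted permutation p = 0.00513). Per2 (r = 0.50, rho = 0.37, adjusted permutation p = 0.013), Nr1d1 (r = 0.37, rho = 0.37, adjusted permutation p = 0.00424) and Per1 (r = 0.46, rho = 0.32, adjusted permutation p = 0.0205 for r and 0.0598 for rho) followed Dbp loosely. Bmal1 and Npas2, outside the 9 pairs, gave r of -0.80 and -0.78. Left out together, the 2 livers with Dbp farthest from the median, DN:WT animal 10 and DN:HET animal 20, took Nr1d1 to r = 0.23 (adjusted permutation p = 0.0557), and the other 8 pairs kept their calls. Without DN:WT animal 10 and DN:HOM animal 12, the correlation with Per2 was 0.35 (adjusted permutation p = 0.0813).

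The same relations were computed within each study, and the difference between the studies was not tested. Within the 24 knock-in livers r with Dbp was 0.98 for Per3, 0.97 for Tef, 0.92 for Nr1d2, 0.89 for Ciart and -0.72 for Clock. Within the 24 knockout livers it was 0.24 for Per3, 0.62 for Tef, 0.45 for Nr1d2, -0.01 for Ciart and -0.51 for Clock, and of the 9 pairs only Tef (rho = 0.60, adjusted permutation p = 0.0266 for r and 0.0402 for rho) and Nr1d1 (r = 0.57, rho = 0.43, adjusted permutation p = 0.031 for r and 0.188 for rho) passed by r, and Tef alone by rho. In the knockout livers Nr1d1 ran opposite to Cry1 (r = -0.78) and Per2 (r = -0.63), where the knock-in livers gave -0.13 and 0.15. These pairs are given as a description, with no test, and all values share the libraries they were read from.

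**Figure D5:**
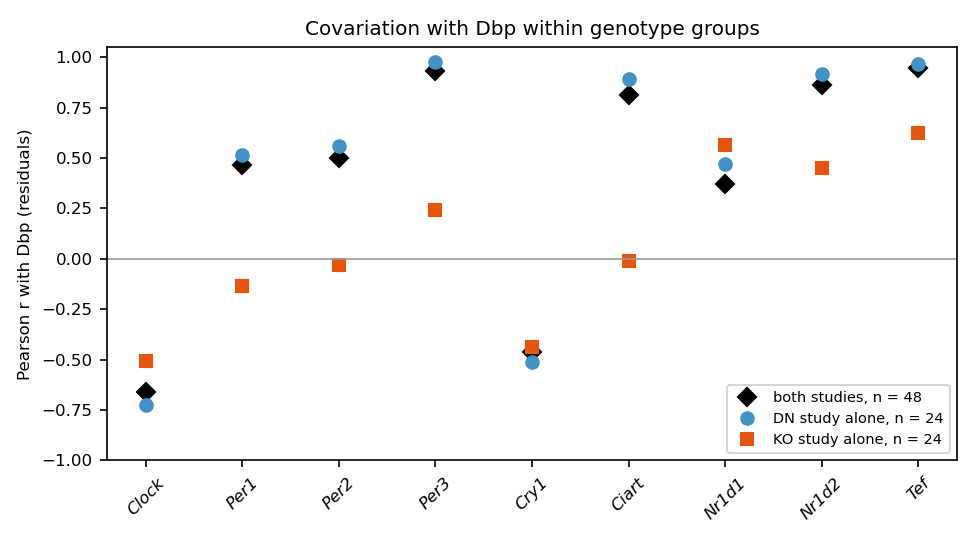
Pearson r with Dbp of each other clock gene, after removal of group means, over all 48 livers and within the 24 knock-in and the 24 knockout livers. Per3 and Tef stand at 0.98 and 0.97 in the knock-in livers and at 0.24 and 0.62 in the knockout livers, and Clock is below 0 in both.

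Among 11715 genes outside the list with a mean of at least 1 log2 CPM, those whose deviations were most like those of Dbp over the 48 livers were Pcsk4 (r = 0.87), Usp2 (0.80), Serpina6 (0.77), Gpr146 (0.76) and Slc5a6 (0.76). Among the most opposite were Bmal1 (-0.80), Ncoa5 (-0.76), Nedd4l (-0.75) and Tab2 (-0.75). Tef and Per3 were closer to Dbp than any of the 11715 genes was. Within the knock-in livers r with Dbp was 0.93 for Pcsk4, 0.87 for Usp2, 0.81 for Serpina6, 0.82 for Gpr146 and 0.83 for Slc5a6. Within the knockout livers it was 0.71, -0.25, 0.50, 0.58 and 0.32 in the same order of genes, so that Usp2 had the opposite sign there. For Bmal1, Ncoa5, Nedd4l and Tab2 it was -0.87, -0.85, -0.81 and -0.80 in the knock-in livers and -0.45, -0.31, -0.60 and -0.58 in the knockout livers. These r are a description over livers that share their libraries, with no test.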

How the data were processed

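Poly(A) RNA from 48 livers was made into stranded libraries and sequenced. Per the labels, the authors aligned reads to GRCm39 with STAR 2.5.0a and deposited read counts per gene. Of its count columns, column 4 was used, which held 6.97 to 8.62 times the reads of the opposite strand. Rows naming no gene held 24.0% to 35.0% of reads and were left out. GENCODE M39 gave names, matching 98.8% of 55416 identifiers, and positions.

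Counts were filtered with filterByExpr, scaled by TMM and fitted with edgeR 4.0.16 (quasi-likelihood, limma 3.58.1, R 4.3.3) as 6 group means over all 48 livers, with Benjamini-Hochberg adjustment over 15621 genes and a threshold of 0.05. No pair of libraries held identical counts. SE was the absolute log2 fold change divided by the square root of F. CPM used TMM-scaled library sizes, and log2 CPM a prior count of 2. Correlations used deviations from group means and 100000 permutations within groups, 2-sided. The permutations here and in the spread test took no account of cohort, which the labels do not give. Scripts ran in Python 3.11.15 with numpy 2.4.6, pandas 2.3.3, scipy 1.17.1 and statsmodels 0.14.6, and figures in matplotlib 3.10.9.

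Alternatives were DESeq2 1.42.0, library size alone, no low-count filter, unstranded counts (column 2), leaving out DN:WT animal 10 with DN:HOM animal 12 or the 2 shallow livers, and fitting only the groups compared. A Bmal1 covariate and the spread test were added after the data were seen. The members, gene lists and marker lists were chosen with earlier results of these data known. Genes outside the members were named from those lists, and those most like Dbp as the 5 highest and 5 lowest r. Some genes of these lists are not reported here. The fits were tested on simulated data.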

Additional observations from a re-analysis of the deposited data

Results flagged for a closer look

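Dixon's test, applied to CPM and not to log2 CPM, was run at its 95% critical value. It marked 1 liver as far from the other 7 in 6 of the 60 combinations of gene and genotype group. In each of the 6 that liver was the highest of its group. Under a normal distribution chance marks about 1 in 20 groups, and whether CPM follow one was not tested. Ciart was 15.2 CPM in DN:HET animal 8, where the next liver had 5.38, and 9.36 CPM in DN:HOM animal 19, where the next had 2.96. Cry1 was 20.6 CPM in DN:WT animal 21, where the next had 12.3, and 28.5 CPM in DN:HET animal 20, where the next had 14.8. Tef was 344 CPM in KO:HET animal 16, where the next had 269. Clock was 41.0 CPM in KO:WT animal 1, where the next had 32.8.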

How the results depend on the processing

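Of the log2 fold changes of members under the alternatives, 437 kept direction and side of the threshold, 22 passed newly, 2 no longer passed and 19 changed sign, none of these last called with all livers under TMM scaling. The 7 members called between the wild-type groups were called in every alternative run for that comparison, which did not include the Bmal1 covariate, and dropping the low-count filter changed no call. No paired analysis was possible because the labels give no replicate number shared between groups. The labels name no cohort either, so cohort could not be included in the fits. Depth limits Ciart most, at 6 to 10 reads in its lowest livers.

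For DN:HOM against DN:WT, where 2 members were called, the count was 5 with the Bmal1 covariate (47.7% of all genes called), 7 with it and without the 2 livers (59.3%), 4 without the 2 livers alone (59.1%), and 1 with only the groups compared (43.03%). For KO:HOM against KO:WT, where 0 were called, it was 1 with DESeq2 (14.7%), with only the groups compared (16.6%), without the 2 knock-in livers (19.4%), and with the covariate without them (19.9%). For the difference of the homozygous effects it was 1 with library size alone (16.1%), 2 without the 2 livers (34.7%) and 4 with the covariate as well (34.8%), against 0. The cause of these shifts was not tested.

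The sign changes were all in small values. With library size alone, which moved the median of all genes by over 0.1 in both homozygous comparisons, their difference and between the wild-type groups, the DN:HOM values of Clock and Dbp were 0.062 and 0.072, the KO:HOM values of Cry1 and Per2 were 0.037 and 0.058, the DN:HET value of Per1 was 0.018, the KO:HET value of Dbp was 0.012, and the differences of homozygous effects were 0.18 for Ciart, 0.15 for Clock and 0.26 for Dbp. That difference was 0.0063 for Dbp with DESeq2 and 0.0077 without the shallow livers. With the Bmal1 covariate it was 0.066 for Clock and the DN:HOM value of Nr1d2 was -0.048, and without the 2 livers as well these were 0.049 and -0.10. The KO:HET value of Dbp was 0.073 with unstranded counts and 0.0014 with only the groups compared, that of Nr1d1 was 0.0060 with unstranded counts, and that of Ciart was -0.089 without the shallow livers.

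Correlations with Dbp within the knockout livers changed sign for Ciart (-0.0088), Per1 (-0.14) and Per2 (-0.029) and did not pass for Clock (-0.51), Cry1 (-0.44), Nr1d2 (0.45) and Per3 (0.24). The cause was not tested. The correlation with Per2 was 0.35 without the 2 livers, that with Nr1d1 was 0.23 without the 2 livers farthest in Dbp, and neither passed. The spread ratio of Clock, 1.54 without the 2 livers, no longer passed.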
